A study of Homo sapiens with 12 samples.

Results

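BEX2 belongs to the BEX genes, a set of small X-linked genes that lie in 1 stretch of the X chromosome together with the related TCEAL genes. The 10 genes described here are BEX1, BEX2, BEX3, BEX4, BEX5, TCEAL1, TCEAL3, TCEAL4, TCEAL8 and TCEAL9, out of 36601 genes measured. They were taken by symbol from the expression table and were chosen by the levels of BEX2 RNA, which was far higher in metformin-treated than in vehicle-treated cells, with its relatives added by name. Values of that comparison are therefore given as a description without a test, and the test of metformin compares other libraries.

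The cells were KP4, a human cell line labelled as pancreatic ductal cell carcinoma and as wild type. They were kept in medium with fetal bovine serum and received for 24 h DMSO (vehicle), 10 mM metformin (Met), 5 nM FK866 (FK) or both drugs at these doses (Met+FK). Metformin blocks respiration at mitochondrial complex I, and FK866 inhibits NAMPT, the enzyme that recycles nicotinamide into NAD. Total RNA was freed of ribosomal RNA, and each treatment gave 3 libraries of read pairs, with 30667735 to 41052203 read pairs counted on genes per library (median 34767232). Since all 12 libraries came from 1 cell line, and nothing states that they came from separate cultures, p-values measure the spread between these libraries, which may be technical. All values below are normalized counts, that is, read pairs per gene divided by a size factor per library. Of the 8 ductal carcinoma markers examined, 7 averaged 10 normalized counts or more, and EPCAM was the exception with 8.93. The 7 differed widely, with means of 33.7 for KRT19, 47.4 for CDH1, 103 for MUC1 and 248 for KRT7. KRT8 averaged 2728, SOX9 4320 and KRT18 13174. The mesenchymal gene VIM stood at a mean of 103576 normalized counts.

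BEX proteins are short, largely unfolded adaptors that are best known from brain, where they are abundant. BEX3, also called NADE or NGFRAP1, was found as a partner of the intracellular part of the neurotrophin receptor p75NTR, which NGFR encodes. BEX2 binds the transcription cofactor LMO2, BEX4 binds the deacetylase SIRT2, and BEX proteins can occupy FEM1B, the substrate receptor of a CUL2 ubiquitin ligase that degrades FNIP1 when cells are under reductive stress. The TCEAL genes are named after TCEA1, TCEA2 and TCEA3, the TFIIS elongation factors of RNA polymerase II, to which their proteins show some similarity.

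Of the 10 genes, BEX2, BEX3, TCEAL1, TCEAL3, TCEAL4, TCEAL8 and TCEAL9 averaged 10 normalized counts or more and were tested, and BEX1, BEX4 and BEX5 did not reach it. BEX1 had 5 read pairs in all 12 libraries, of which Met replicate 1 held 2, Met replicate 2 held 1 and Met+FK replicate 2 held 2. BEX4 also had 5 read pairs in all, at most 2 in any library. No read pair fell on BEX5, and a count of 0 allows up to 3 read pairs in a library, or 2.47 to 3.46 normalized counts depending on the library. These limits cover counting error only. Since every library was at or under 3 read pairs for all of BEX1, BEX4 and BEX5, no fold change is given for them. The other TCEAL genes, TCEAL2, TCEAL5, TCEAL6 and TCEAL7, were likewise nearly without reads, with 1, 0, 1 and 2 read pairs in the whole series.

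The promoters of BEX2 and BEX4 are shown first, because they are the most alike pair of the set while BEX4 was almost without reads. Over 303 aligned positions of their RefSeq promoters (250 bases before the transcript start to 50 after it), 254 are identical (83.8%). The 250 bases before each start are printed 5′ to 3′ from the RefSeq annotation of GRCh38.p14, with the longest run that both share, 45 bases, in capitals.
BEX2 (chrX:103310991-103311240, minus strand): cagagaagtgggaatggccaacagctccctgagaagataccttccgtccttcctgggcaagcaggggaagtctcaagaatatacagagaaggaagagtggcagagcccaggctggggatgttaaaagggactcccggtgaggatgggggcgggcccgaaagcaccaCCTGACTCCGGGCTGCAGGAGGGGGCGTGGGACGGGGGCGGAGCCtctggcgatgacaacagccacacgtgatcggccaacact
BEX4 (chrX:103214858-103215107, plus strand): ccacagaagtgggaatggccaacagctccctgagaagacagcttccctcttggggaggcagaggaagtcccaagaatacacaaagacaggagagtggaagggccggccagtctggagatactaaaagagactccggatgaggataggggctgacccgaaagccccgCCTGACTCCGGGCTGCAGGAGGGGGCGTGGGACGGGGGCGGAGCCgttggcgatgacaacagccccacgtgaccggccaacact
Downstream of the capitals, both stretches hold near their end a CACGTG, the E-box bound by basic helix-loop-helix factors, whose first base lies 19 bases before the start in each gene. BEX2 reached 618 normalized counts in these cells and BEX4 never more than 2.09. The next most alike pair was BEX1 and BEX3, identical at 235 of 300 positions (78.3%), and it also joins a gene almost without reads to the gene with the highest level of the set.

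All 10 genes have a RefSeq promoter, and 8 of the 10 hold CACGTG within it, against 8.77% of the 27305 genes with a promoter in the same annotation. The exceptions are BEX5 and TCEAL9. The longer form TCACGTGA, which contains the E-box, is present in BEX1, BEX3, TCEAL1, TCEAL3, TCEAL4 and TCEAL8, that is 6 of the 10, against 1.18% of all genes, while BEX2 and BEX4 have only the shorter form. CACGTG and TCACGTGA read the same on both strands. These genes descend from common ancestors and their promoters are not independent of each other, so the shares are a description. The windows around each E-box are shown to compare the bases around it, with CACGTG in capitals and the strand of the gene.
BEX2 (chrX:103310994-103311033, minus strand): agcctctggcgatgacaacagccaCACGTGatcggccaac
BEX4 (chrX:103215065-103215104, plus strand): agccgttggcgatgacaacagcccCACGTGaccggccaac
BEX1 (chrX:103064203-103064242, minus strand): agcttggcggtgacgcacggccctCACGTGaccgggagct
BEX3 (chrX:103376467-103376506, plus strand): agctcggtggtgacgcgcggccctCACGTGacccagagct
TCEAL1 (chrX:103628895-103628934, plus strand): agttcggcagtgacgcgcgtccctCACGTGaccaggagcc
TCEAL8 (chrX:103255171-103255210, minus strand): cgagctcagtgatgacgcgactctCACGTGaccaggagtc
TCEAL3 (chrX:103607859-103607898, plus strand): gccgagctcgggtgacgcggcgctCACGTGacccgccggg
TCEAL4 (chrX:103585481-103585514, plus strand): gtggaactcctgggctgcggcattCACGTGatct
The bases before the E-box of BEX2 and BEX4 are alike but not identical, and BEX1, BEX3, TCEAL1, TCEAL3 and TCEAL8 each hold the letters tgacg a short way before it. On either strand of the whole promoter, TGACG occurs in 9 of the 10, all but TCEAL4, against 28.4% of all genes. Also searched were GGGCGG (8 of 10, against 48.3%), TGACNNNGC (5 of 10, against 16.1%) and CCAAT (4 of 10, against 39.7%). TGACGTCA, TGANTCA and TATAAA occur in 0 of the 10, against 2.25%, 9.37% and 14.0% of all genes. TGATGNAA, the composite site of ATF4 and CHOP, searched on both strands, occurs in 0 of the 10 promoters and in 4.46% of all genes. A match is a stretch of letters and not a measured binding site, and its absence from these 300 bases says nothing about the factor. Since BEX1, BEX4 and 5 other tested genes hold the E-box as well, its presence did not separate BEX2 from the others.

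BEX2 was the member with by far the widest gap between libraries with and without metformin. Its gene lies on chromosome X at positions 103309346 to 103311046 of hg38, on the minus strand (ENSG00000133134). In DMSO the 3 libraries held 45.0, 43.4 and 32.7 normalized counts of BEX2, and in FK 51.0, 50.4 and 36.7. In Met they held 618, 571 and 457, and in Met+FK 547, 495 and 413. The lowest library with metformin thus stood far above the highest library without it, whereas DMSO overlapped FK and Met overlapped Met+FK. Without metformin the means (± SD, n = 3) were 40.4 ± 6.66 for DMSO and 46.0 ± 8.07 for FK. With it they were 548 ± 82.9 for Met and 485 ± 67.6 for Met+FK. Replicate 3 was the lowest of the 3 libraries in all 4 treatments.

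**Figure D1:**
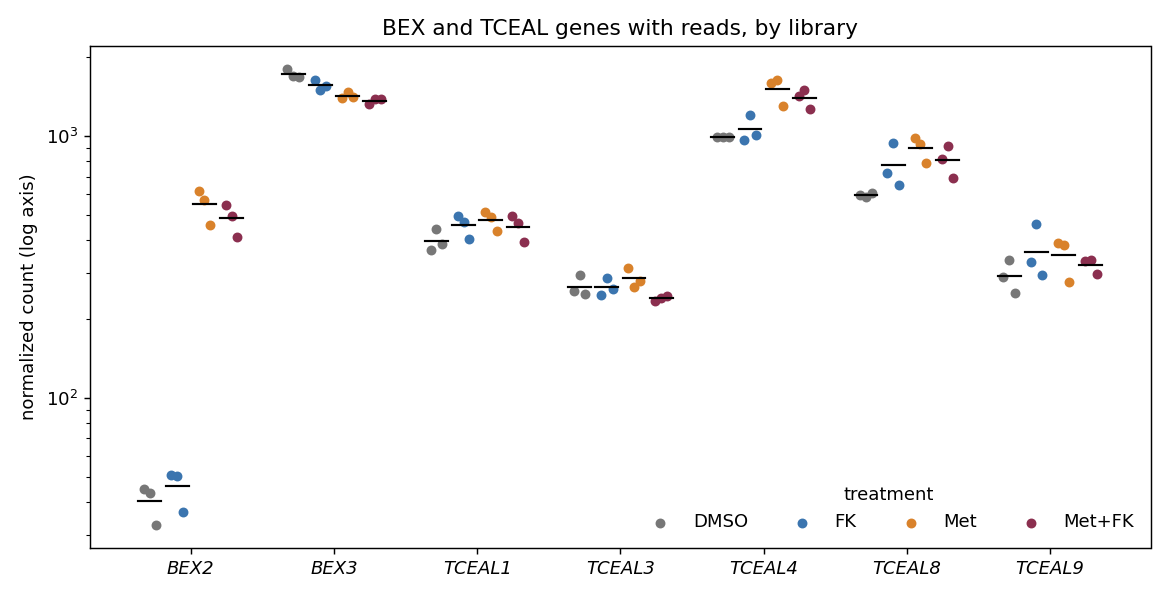
Normalized counts (log axis) of the 7 BEX and TCEAL genes with enough reads to be tested, 1 point per library and a bar at the mean of the 3 libraries of each treatment. BEX2 lies between 32.7 and 51.0 in the 6 libraries without metformin and between 413 and 618 in the 6 libraries with it, while each other gene stays within a narrower band.

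The effect of metformin was tested between Met+FK and FK, which share no library with the comparison that drew attention to BEX2. The test was limma-trend on log2(normalized count + 1) over the 15376 genes whose mean was 10 normalized counts or more. All 12 libraries were fitted at once, so the spread was estimated from Met and DMSO as well. The members were chosen with earlier results on these data known, so the test is not wholly independent of that choice. A gene counted as a DEG if its adjusted p-value was below 0.05 and it differed more than 1.5-fold (0.585 in log2 units). BEX2 was 10.4-fold higher in Met+FK than in FK, a log2 fold change of 3.37 (SE 0.17, 95% confidence interval 3.004 to 3.744, adjusted p = 3.71e-09 in limma-trend), in 3 of 3 libraries. Only 2 of the 15376 genes had a larger log2 fold change there. On this scale fold changes of genes with low counts are understated. Under 18 alternatives of scaling, filter, test and libraries the value ranged from 3.14 to 3.49, with an adjusted p-value under 0.05 in all 18. In RNA from whole cultures, a change in the share of cells that express a gene and a change in the RNA per cell cannot be told apart. As a description, the log2 fold change was 3.73 (SE 0.17), or 13.3-fold, between Met and DMSO, and 3.56 between Met+FK and DMSO.

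No change of BEX2 with FK866 passed the thresholds for DEGs. Between FK and DMSO the log2 fold change was 0.18 (95% confidence interval −0.19 to 0.55, adjusted p = 0.431 in limma-trend), and between Met+FK and Met it was −0.18 (95% confidence interval −0.55 to 0.19, adjusted p = 0.906). With libraries paired by replicate number, FK was above DMSO and Met+FK below Met in 3 of 3 pairs each. BEX2 was chosen for high values in Met and low values in DMSO, and that choice by itself favours both directions. Each comparison includes libraries used in that choice, so its p-values and interval for BEX2 are a description and not an independent test. With replicate numbers as blocks in the fit of all 12 libraries, the adjusted p-values were 0.162 and 0.504. With the trend on GC content and transcript length also removed they were 0.0682 and 0.461. The unpaired intervals leave room for a change of up to 0.55 in either comparison, somewhat under the fold threshold for DEGs. The interaction, in which the FK866 effect without metformin is subtracted from that in metformin-treated cells, was −0.36 (SE 0.25) for BEX2, a description since it includes the Met and DMSO libraries.

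Across the family, 1 of the 7 tested genes was higher in Met+FK than in FK, namely BEX2, and 0 were lower. Of all genes tested 9.27% were higher and 9.29% were lower. By the adjusted p-value alone, TCEAL4 was also higher and BEX3 lower, so that 2 of 7 were higher against 20.5% of all genes, and 1 of 7 was lower against 21.7%. The median log2 fold change of the 7 genes was −0.019, and that of all genes −0.011. As a description, BEX2, TCEAL4 and TCEAL8, or 3 of 7, were past 1.5-fold higher between Met and DMSO, against 14.3% of all genes, and 0 were past it lower, against 11.3%. Both TCEAL genes were only just past it, and without Met replicate 1 or Met replicate 2 the count was 1 of 7. BEX2 alone was past it between Met+FK and DMSO, where 14.9% of all genes were higher and 12.3% lower.

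**Figure D2:**
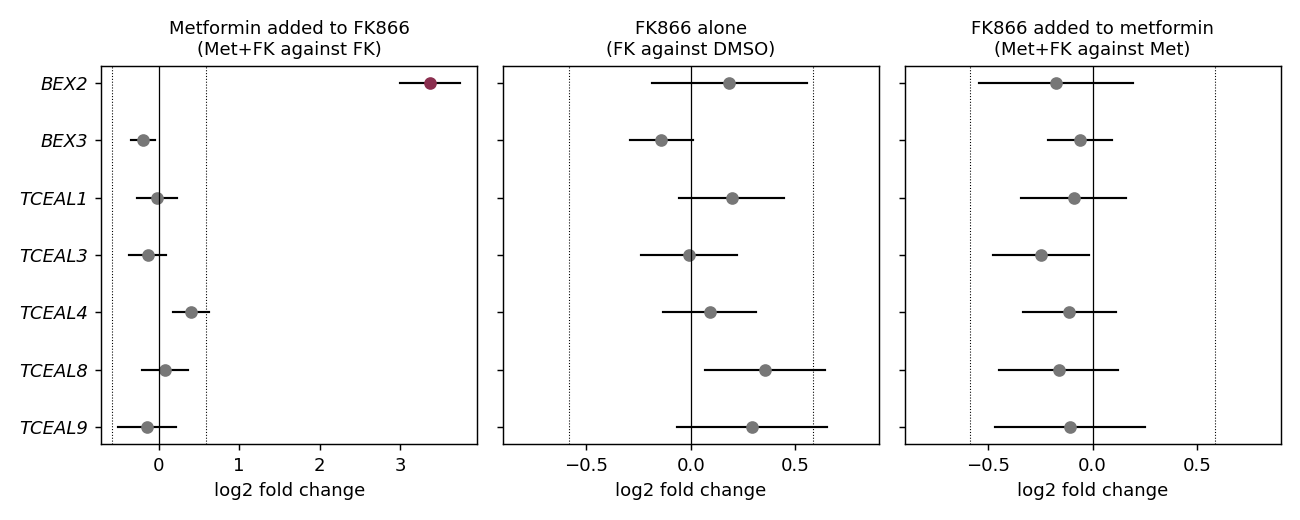
Log2 fold changes (x axis) with 95% confidence intervals from limma-trend for the 7 tested genes, in Met+FK against FK, FK against DMSO and Met+FK against Met; dotted lines mark a fold change of 1.5 and the coloured point a DEG, and the first panel has a wider x axis. BEX2 at 3.37 is the DEG among them, and most intervals of the other panels include 0.

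BEX3 had the highest level of the set, before and after treatment. Its gene lies on chromosome X at 103376340 to 103378077, on the plus strand. DMSO libraries held 1806, 1697 and 1674 normalized counts, FK libraries 1641, 1502 and 1551, Met libraries 1394, 1470 and 1407, and Met+FK libraries 1328, 1379 and 1387. All 6 libraries with metformin were lower than all 6 without it, the opposite direction to BEX2. The share of all genes that separate in this way was not counted. Between Met+FK and FK the log2 fold change was −0.20 (SE 0.072, adjusted p = 0.0379 in limma-trend), a drop to 0.873 of the FK level that is under the fold threshold. The adjusted p-value rose above 0.05 in 7 of 18 alternatives, to at most 0.123 with libraries scaled to the same total, and did so on leaving out FK replicate 1 or 3 (0.116 and 0.0805) or Met+FK replicate 1, 2 or 3 (0.117, 0.0785 and 0.0631). As a description, BEX3 stood at −0.28 between Met and DMSO, and at −0.15 there with libraries scaled to the same total, a scaling that moves the median of all genes in that comparison from 0.012 to 0.13.

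Per kilobase of exon, which allows levels to be compared between genes, the order of the set changed at a single place. BEX3 was first in every treatment, with 1552 ± 63.6 (SD, n = 3) normalized counts per kb for vehicle and 1280 ± 36.6 (SD, n = 3) after metformin, followed by TCEAL8, TCEAL4, then TCEAL1, TCEAL9 and TCEAL3. BEX2 came last of the 7 in DMSO, with 35.5 ± 5.86 (SD, n = 3) normalized counts per kb, and in FK, with 40.5 ± 7.10 (SD, n = 3). In Met it reached 482 ± 72.9 (SD, n = 3) and in Met+FK 426 ± 59.4 (SD, n = 3) normalized counts per kb, which placed it between TCEAL4 and TCEAL1. The range of BEX2 in Met, 402 to 543 normalized counts per kb, overlapped that of TCEAL4, 520 to 650, and lay above that of TCEAL1, 271 to 319. Even after metformin BEX2 remained below BEX3. Exon lengths are merged over all annotated transcripts, so a gene with many transcript forms appears lower on this scale.

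**Figure D3:**
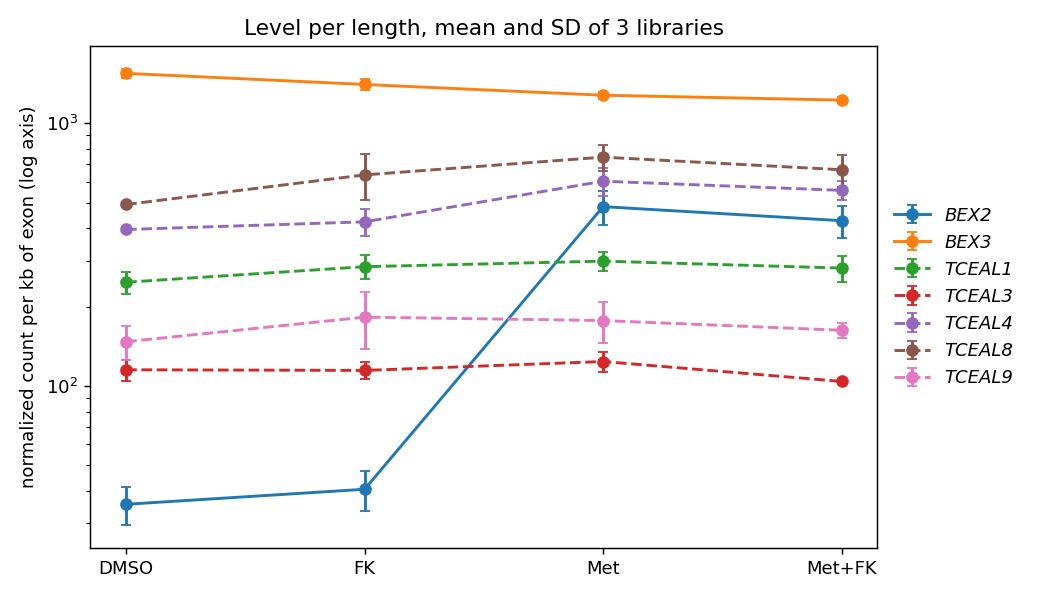
Mean level per length (normalized counts per kb of merged exon, log axis) of the 7 tested genes in each treatment, with bars of 1 SD over 3 libraries; lines only join the points of a gene. BEX2 moves from the last place in DMSO (35.5) to a place between TCEAL4 and TCEAL1 in Met (482), and BEX3 is first throughout.

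TCEAL4, on chromosome X from 103576231 to 103587736 on the plus strand, was the TCEAL gene whose level separated the libraries with and without metformin. DMSO libraries held 991, 995 and 987 normalized counts, FK libraries 967, 1201 and 1012, Met libraries 1600, 1633 and 1307, and Met+FK libraries 1418, 1498 and 1273. The lowest of the 6 libraries with metformin, at 1273, was above the highest of the 6 without it, at 1201. How many of all genes separate in this way was not counted, so it is no trait particular to TCEAL4. By the adjusted p-value alone, 20.5% of all genes were higher in Met+FK than in FK. Its log2 fold change between Met+FK and FK was 0.40 (SE 0.10, 95% confidence interval 0.18 to 0.62, adjusted p = 0.00638 in limma-trend), or 1.32-fold, higher in 3 of 3 libraries and under the fold threshold. The adjusted p-value stayed under 0.05 in all 18 alternatives. As a description, the log2 fold change between Met and DMSO was 0.60.

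TCEAL8, on chromosome X from 103252995 to 103255192 on the minus strand, is the tested gene next to BEX2 on the side towards lower positions. Its DMSO libraries were close together at 597, 584 and 605 normalized counts. The FK libraries held 722, 941 and 651, the Met libraries 985, 930 and 789, and the Met+FK libraries 818, 913 and 690. Each of the 9 treated libraries was thus above all DMSO libraries, and the 3 treated groups overlapped each other. Between FK and DMSO the log2 fold change was 0.36 (SE 0.13, adjusted p = 0.0652 in limma-trend). A fit of all 12 libraries with replicate numbers as blocks gave an adjusted p-value of 0.00995. That fit gives every treatment the same replicate effects. By the rule below (a correlation above 0.1 for each number), the numbers do not pair DMSO with Met or FK with Met+FK. The adjusted p-value was also under 0.05 in DESeq2 on the recovered read pairs (log2 fold change 0.38, adjusted p = 0.0332) and without FK replicate 3 (0.47, adjusted p = 0.0451). Once each library was freed of its trend on GC content and transcript length, the value was 0.18 (adjusted p = 0.225, or 0.143 with the block as well). TCEAL8 has a GC content of 38.8%, and the FK libraries gave relatively more counts to genes of low GC content than the DMSO libraries, with slopes of −0.245 to 0.0027 against 0.043 to 0.196 log2 units per 10 percentage points of GC. The part of this trend in the result was not separated otherwise.

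Between Met+FK and FK, TCEAL8 had a log2 fold change of 0.073 (adjusted p = 0.695 in limma-trend), against 0.59 between Met and DMSO as a description. The interaction was −0.52 (SE 0.19, adjusted p = 0.115 in limma-trend), which missed the threshold. With the replicate block its adjusted p-value was 0.0155, and 0.153 with the GC and length trend removed as well. By the rule below, the replicate numbers do not pair DMSO with Met or FK with Met+FK, since replicate 1 falls short in each. Among the 6 members other than BEX2, 0 passed this test in limma-trend, 1 had an unadjusted p-value under 0.05, and of all genes 0.0585% passed and 30.5% had such an unadjusted p-value. DESeq2 and edgeR on the recovered read pairs also gave 0 of 6.

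TCEAL9, also called WBP5 for its binding to WW domains, lies on chromosome X from 103356489 to 103358462 on the plus strand. Its values ran from 251 to 335 normalized counts in DMSO, from 294 to 461 in FK, from 278 to 391 in Met and from 297 to 335 in Met+FK, and all 4 ranges overlapped. Replicate 3 was the lowest in every treatment, as for BEX2. Between FK and DMSO the log2 fold change was 0.29 (SE 0.17, adjusted p = 0.197 in limma-trend, or 0.0367 with the replicate block), and with the GC and length trend removed it was 0.044 (adjusted p = 0.837, or 0.769 with the block). TCEAL9 has the lowest GC content of the set, 36.0%.

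TCEAL1, a nuclear phosphoprotein gene, and TCEAL3 overlap by 987 bases on the same strand. Read pairs of the shared stretch may have been left out of both genes or counted for the wrong one, so their values are uncertain. For DMSO, Met, FK and Met+FK in turn, TCEAL1 means were 398 ± 37.7, 479 ± 40.6, 456 ± 47.3 and 451 ± 51.7 normalized counts (SD, n = 3 each). TCEAL3 means were 266 ± 24.9, 286 ± 24.8, 265 ± 19.5 and 240 ± 5.35 (SD, n = 3 each) in the same order. Between Met+FK and FK, TCEAL1 had a log2 fold change of −0.019 (adjusted p = 0.914 in limma-trend), whose sign turned in some alternatives, and TCEAL3 one of −0.14 (adjusted p = 0.334). TCEAL3 was also the member with the largest difference between Met+FK and Met, −0.25 (95% confidence interval −0.48 to −0.017, adjusted p = 0.694), with all Met+FK libraries lower than all Met libraries. In addition, 3.34% of the 100-base windows of the TCEAL3 transcript are found in TCEAL6 as well, and TCEAL3-AS1 overlaps it on the other strand by 417 bases. No other member shared a window of this length with another gene.

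FK866 alone gave 0 DEGs among the 7 genes in limma-trend, where 2.73% of all genes were higher and 0.754% lower than in DMSO, and 1 member, TCEAL8, had an unadjusted p-value under 0.05, against 42.2% of all genes. Met+FK against Met also gave 0 of 7 in limma-trend, against 0.052% higher and 0.0065% lower of all genes, and 1 member, TCEAL3, had an unadjusted p-value under 0.05, against 6.84%. Neither edgeR nor DESeq2 gave a DEG among the members in these comparisons.

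The position of the genes was examined next, as BEX2 lies among relatives within 1 Mb. The table holds 48 genes whose start lies within 1 Mb of that of BEX2, of which 21 were tested and 7 had no reads. Besides BEX2, 1 of the 20 other tested genes was a DEG between Met+FK and FK, where 9.27% of all genes were higher and 9.29% lower. This was TMSB15A, a beta-thymosin gene 796 kb away, which was lower. It held 17.9, 19.5 and 24.1 normalized counts in FK and 7.32, 9.88 and 0.98 in Met+FK (log2 fold change −1.92, adjusted p = 0.00542 in limma-trend). The Met+FK libraries held only 7, 12 and 1 read pairs. Its mean of 14.9 passed the filter through DMSO and FK, as Met averaged 6.36 and Met+FK 6.06. In 17 alternatives its log2 fold change ran from −2.40 to −0.96, and with a minimum of 10 per library it was not tested. The other 19 lay between −0.42 and 0.40, and the median of the 20 was −0.082. The tested genes next to BEX2 on each side were TCEAL8, 56.4 kb away at 0.073, and TCEAL9, 47.1 kb away at −0.14. BEX3 lies 67.0 kb away, and its log2 fold change of −0.20 has the opposite sign to that of BEX2.

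**Figure D4:**
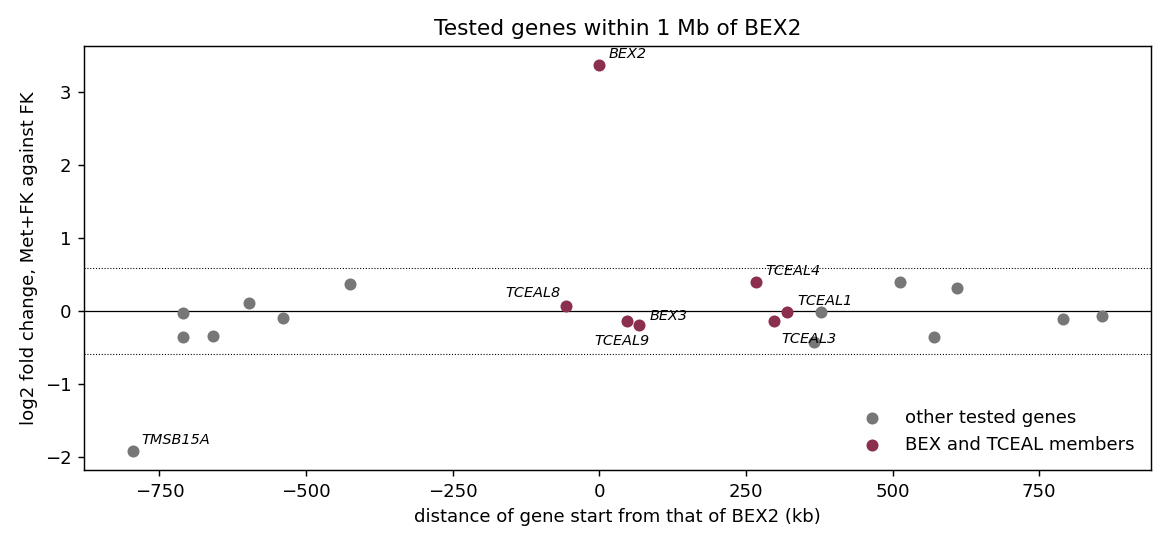
Log2 fold change between Met+FK and FK (y axis) of the 21 tested genes within 1 Mb of BEX2, against the distance of their start from that of BEX2 in kb; dotted lines mark a fold change of 1.5. BEX2 stands alone at 3.37, TMSB15A lies at −1.92, and the 19 other genes lie between −0.42 and 0.40.

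The ARMCX and GPRASP genes, relatives of the BEX and TCEAL genes by position, are 9 on the X chromosome, of which 5 were tested. Between Met+FK and FK, 0 of these 5 were DEGs in limma-trend, 0 had an unadjusted p-value under 0.05, and their median log2 fold change was −0.011, the same as that of all genes. Neither edgeR nor DESeq2 on the recovered read pairs called any of the 5.

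Partners of BEX proteins were examined as a list of 4 genes, NGFR, YWHAE, LMO2 and SIRT2, all of which were tested. Of the 4, 2 were DEGs between Met+FK and FK, both higher, against 9.27% of all genes, and 0 were lower, against 9.29%. The median log2 fold change of the 4 was 0.48, and that of all genes −0.011. NGFR, the neurotrophin receptor p75NTR, held 145, 141 and 154 normalized counts in DMSO, 161, 175 and 174 in FK, 685, 619 and 716 in Met, and 1044, 952 and 977 in Met+FK. Its 4 treatments did not overlap, and metformin marked the wide gap, as for BEX2. It was 5.79-fold higher in Met+FK than in FK, a log2 fold change of 2.53 (SE 0.095, adjusted p = 1.53e-10 in limma-trend, higher in 3 of 3 libraries). It also rose when FK866 joined metformin, by 0.56 between Met and Met+FK (adjusted p = 0.0300), under the fold threshold, though the adjusted p-value was 0.0524 to 0.231 whenever a Met or Met+FK library was left out.

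SIRT2, the NAD-dependent deacetylase that BEX4 binds, averaged 1347 ± 151 (SD, n = 3) normalized counts for FK and 2021 ± 130 (SD, n = 3) for Met+FK. Its log2 fold change of 0.59 (adjusted p = 0.000131 in limma-trend) was just past the fold threshold. The value was 0.50 without FK replicate 2, 0.54 without Met+FK replicate 3 and 0.51 with the GC and length trend removed, so it was then no DEG, while the adjusted p-value stayed under 0.05 in all 18 alternatives. YWHAE, a 14-3-3 protein gene, was lower by the adjusted p-value alone (−0.31, adjusted p = 0.0013), and LMO2 had 0.36 (adjusted p = 0.161).

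The CUL2-FEM1B list holds the ligase and its reductive stress substrate with partners, 10 genes, all tested: FEM1B, FEM1A, FEM1C, CUL2, ELOB, ELOC, RBX1, FNIP1, FNIP2 and FLCN. Of the 10, 1 was a DEG between Met+FK and FK and it was lower, against 9.29% of all genes. By the adjusted p-value alone 2 were higher and 3 lower, against 20.5% and 21.7% of all genes. The DEG was RBX1, the RING subunit of cullin ligases, with 1768, 1493 and 1554 normalized counts in FK and 956, 977 and 969 in Met+FK. Its log2 fold change was −0.73 (SE 0.080, adjusted p = 4.84e-06 in limma-trend), lower in 3 of 3 libraries. ELOC, an adaptor subunit, stood at −0.44 and FNIP2 at −0.37, while FLCN and its partner FNIP1 stood at 0.43 and 0.37, all with an adjusted p-value under 0.05 and under the fold threshold. That p-value stayed under 0.05 in all 18 alternatives for ELOC and FLCN, in 14 for FNIP1 and in 15 for FNIP2.

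FEM1B itself, the subunit that BEX proteins can occupy, had a log2 fold change of 0.19 between Met+FK and FK (adjusted p = 0.256 in limma-trend). Its DMSO libraries, at 972, 1139 and 1010 normalized counts, were lower than all others, with 1399, 1832 and 1403 in FK, 1798, 1684 and 1314 in Met and 1739, 1896 and 1613 in Met+FK. Between FK and DMSO it was higher by 0.56 (adjusted p = 0.019), under the fold threshold, and by 0.25 with the GC and length trend removed (adjusted p = 0.022). The adjusted p-value was 0.0978, 0.0571 or 0.0718 on leaving out DMSO replicate 1, DMSO replicate 3 or FK replicate 2. FNIP1 was likewise higher in FK than in DMSO, by 0.55 (adjusted p = 0.0178), but by 0.19 with the GC and length trend removed (adjusted p = 0.131).

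**Figure D5:**
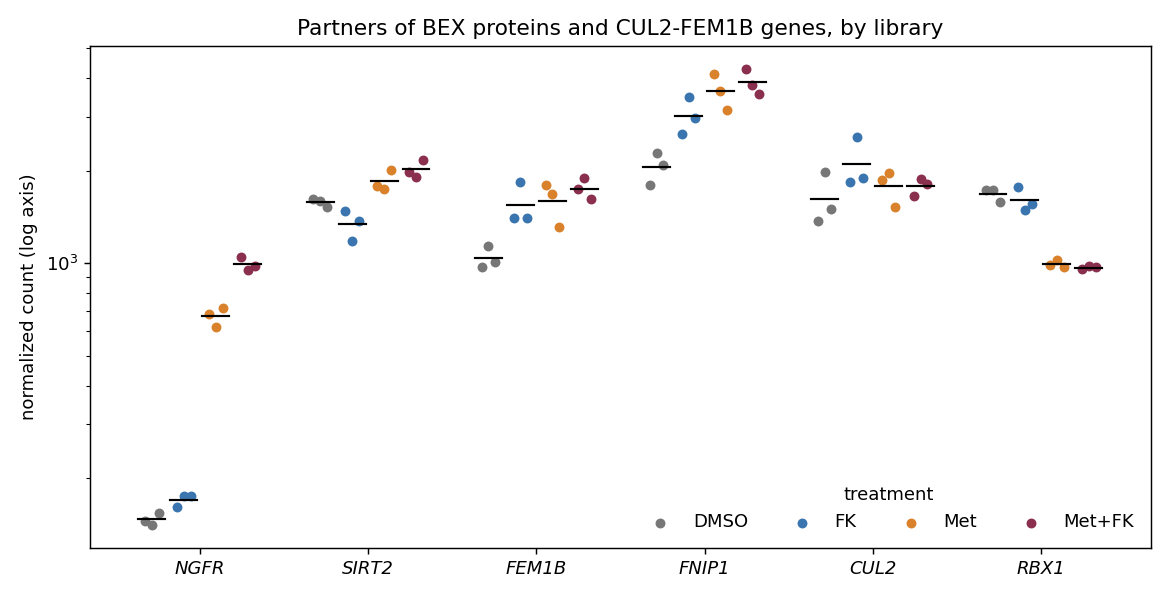
Normalized counts (log axis) of 2 partners of BEX proteins and 4 genes of the CUL2-FEM1B list, 1 point per library and a bar at the mean of the 3 libraries of each treatment. NGFR lies between 141 and 175 without metformin and between 619 and 1044 with it, RBX1 is lower in all libraries with metformin, and FEM1B is lowest in DMSO.

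Genes of neurons and neuroendocrine cells were examined as well, because BEX genes are known from brain. Of 9 such markers, INSM1, NEUROD1, STMN2 and ELAVL4 had no reads, and 3 of the 9, CHGB among them, had a mean of at least 10 normalized counts. The summed level of the list ran from 1282 to 1360 normalized counts in DMSO, 1258 to 1490 in FK, 1584 to 1718 in Met and 1600 to 1801 in Met+FK, so it was higher with metformin than without, without overlap. Most of that sum was CHGB, with means of 633 in DMSO, 1002 in Met, 749.5 in FK and 971 in Met+FK, and SYP, with 641, 608, 566 and 675. Fibroblast markers, summed, ran from 172 to 254 in DMSO, 290 to 387 in FK, 63.3 to 102 in Met and 67.9 to 114 in Met+FK, with no reads for DCN, and were thus lower with metformin. Of the 3 tested, 3 were DEGs lower between Met+FK and FK in limma-trend, against 9.29% of all genes. These were COL1A1 (log2 fold change −1.94, adjusted p = 1.61e-06), COL3A1 (−1.97, adjusted p = 0.00127) and PDGFRA (−2.00, adjusted p = 0.000615). COL3A1 and PDGFRA averaged only 8.21 and 9.93 normalized counts in Met+FK. The ductal carcinoma markers, summed, ran from 25327 to 26266 in DMSO, 19378 to 22878 in FK, 16512 to 19694 in Met and 16238 to 19672 in Met+FK. In this sum the treated groups lay below DMSO and overlapped with each other in part. Most of it was KRT18, with means of 18307 in DMSO, 10421 in Met, 13635 in FK and 10333 in Met+FK. KRT8, KRT7 and KRT19 also had lower means in each treated group than in DMSO. SOX9 and CDH1 had higher means in each, CDH1 barely so in FK, and EPCAM and MUC1 varied. Of the 7 tested ductal genes, 1 was a DEG higher between Met+FK and FK, the cadherin gene CDH1 (log2 fold change 1.28, adjusted p = 0.000248 in limma-trend), and 1 was lower, the keratin gene KRT19 (−1.14, adjusted p = 0.00308), against 9.27% and 9.29% of all genes. Leukocyte markers, summed over 3 genes, ran from 1101 to 1243 in DMSO, 949 to 1034 in FK, 915 to 974 in Met and 955 to 1003 in Met+FK, and 1 of the 2 tested, PTPRC, was a DEG lower between Met+FK and FK (−0.86, adjusted p = 0.00321). The 4 mesenchymal markers, summed, ran from 115861 to 125863 in DMSO, 102608 to 113138 in FK, 98542 to 103612 in Met and 100365 to 108522 in Met+FK. The part of any of these lists in the BEX2 result was not tested.

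The genes most like BEX2 over the 12 libraries were sought among the 11514 tested genes that averaged 100 normalized counts or more, by Pearson's r on the log2 scale. The 5 highest were GARS, the glycyl-tRNA synthetase gene (r = 0.996), SLC9B2, a sodium-proton antiporter gene (0.994), SEL1L3 (0.993), LAMP3, a lysosomal membrane protein gene (0.993), and ISCU, the scaffold of iron-sulfur cluster assembly (0.992). The 12 libraries fall into 6 with and 6 without metformin, so r mainly reflects that gap, and 844 genes had an r above 0.9. The sizes differed: GARS went from 21883 ± 731 normalized counts in DMSO to 45419 ± 2218 in Met, LAMP3 from 236 ± 11.9 to 1649 ± 120 and ISCU from 2434 ± 94.5 to 3705 ± 185 (SD, n = 3 each). Among the members, r with BEX2 was 0.927 for TCEAL4, 0.684 for TCEAL8, 0.486 for TCEAL1, 0.223 for TCEAL9, −0.020 for TCEAL3 and −0.861 for BEX3. TCEAL4 was therefore the member most like BEX2, and BEX3 the most unlike.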

How the data were processed

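The authors trimmed the read pairs of 24 h treated KP4 cells using cutadapt, mapped them to hg38 in STAR, assigned pairs to genes in featureCounts and divided by DESeq2 size factors. The annotation and strand setting are not given in the sources used here. The deposited values are this signal, never negative, here called normalized counts. Each value was a whole multiple of 1 read pair within 0.01 read pairs (100% in all 12 libraries), so counts were recovered.

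The members and gene lists were chosen with earlier results on these data known. The 15376 genes averaging 10 or more were tested in limma-trend (limma 3.58.1, R 4.3.3) on log2(normalized count + 1), with a mean fitted for each treatment and Benjamini-Hochberg adjustment. The thresholds for DEGs were 0.05 for the adjusted p-value and 1.5 for the fold change, without a fold threshold for the interaction. No p-value is given for members where Met or Met+FK is compared with DMSO. The fits were tested on simulated data. Named were all members, the DEGs of each list between Met+FK and FK (at most 3), tested genes within 1 Mb and the 5 genes most like BEX2. TMSB15A, the DEG among the other genes within 1 Mb, was singled out after its values were seen. FEM1B, FNIP1 and the other listed genes that are no DEGs were also named after their values were seen.

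Alternatives were pseudocounts of 0.1 and 10, no filter, a minimum of 10 per library, scaling to 1 total, TMM, edgeR 4.0.16 (2890 DEGs between Met+FK and FK, against 2854 in limma-trend) and DESeq2 1.42.0 on recovered counts, fits of 6 libraries, the replicate block, a loess trend (span 0.3) on GC and length removed (known for 99.7% of genes), no fold threshold, and leaving out single libraries. Across genes, the residuals of libraries with 1 number correlated at 0.252, 0.42 and 0.219 for DMSO with FK, and at 0.171, 0.2 and 0.226 for Met with Met+FK. These exceed 0.1, so the numbers were read as pairs there, from the values alone. The block itself was fitted to all 12 libraries. Of 36366 genes matched in GENCODE 44, 83.6% have the start and end of the table.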

Additional observations from a re-analysis of the deposited data

Results flagged for a closer look

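GPRASP1, of the ARMCX and GPRASP list, lies 658 kb from BEX2. Its libraries lay in opposite directions with metformin in cells without and with FK866, but no test of this passed. Its DMSO libraries held 21.9, 22.7 and 27.6 normalized counts and its Met libraries 31.4, 29.3 and 33.5, all higher (log2 fold change 0.37, adjusted p = 0.132 in limma-trend). Its FK libraries held 43.4, 33.6 and 34.4 and its Met+FK libraries 30.3, 32.1 and 24.4, all lower (−0.35, adjusted p = 0.178). Among the listed genes it was noted because every library moved 1 way in one setting and the opposite way in the other. No share over all genes is given for this rule. The difference between both effects was −0.72 (SE 0.28), and its adjusted p-value of 0.122 missed the threshold. Between FK and DMSO alone GPRASP1 was a DEG (0.60, adjusted p = 0.0465), with an adjusted p-value under 0.05 in 7 of 18 alternatives.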

How the results depend on the processing

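The counts of members stayed within 1.5 times of their value in 112 of 116 alternatives. Among these, the count past 1.5-fold between Met and DMSO, 3, was 2 (without TCEAL8) with a pseudocount of 10, with the GC trend removed, with the block as well and without DMSO replicate 2, and 4 (with BEX1) without the filter. The exceptions to the 112 were the adjusted p-value alone, which gave 3 members between Met+FK and FK, the replicate block, which gave 1 member (TCEAL8, adjusted p = 0.0155, or 0.153 with the GC trend also removed) for the interaction, and leaving out Met replicate 1 or 2, so that the count past 1.5-fold between Met and DMSO was 1 to 3 with each library left out. By the rule used, the same numbers do not pair DMSO with Met (correlations 0.0129, 0.328 and 0.248) or FK with Met+FK (0.0461, 0.235 and 0.142). Only replicate 1 falls short in each. The block therefore counts for the interaction only as a hint. Over all genes the interaction gave 9 genes in limma-trend, 10 in edgeR, 872 in DESeq2, 4914 with the block, 81 with the GC trend removed and 936 with both, and 0 to 1845 with each library left out. With the block and the GC trend removed, TCEAL8 between Met+FK and FK had 0.21 (adjusted p = 0.0303). The block changed no other call of a member beside those given in the report. All values of the interaction used 12 libraries, since 6 cannot give it.

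Of 768 values of single members under alternatives, 723 counted as the same. In the tested comparisons this meant the same direction and the same side of 0.05 for the adjusted p-value. For Met or Met+FK against DMSO, given as a description, it meant a shift smaller than the residual SD of the gene, and 11 values moved further. In the tested comparisons 7 adjusted p-values rose above 0.05 and 6 fell below it. Another 21 values turned their sign, all near 0. The cause was not tested. TCEAL1 between Met+FK and FK was 0.041 with the same total, 0.064 with the GC trend removed and 0.064 with the block as well, and −0.10 to 0.076 with each library left out. Between Met+FK and Met it was −0.16 to 0.0045 with each library left out. TCEAL3 between FK and DMSO was 0.016 with the same total, 0.017 with TMM, 0.015 with edgeR, 0.16 with the GC trend removed and 0.16 with the block as well, and −0.064 to 0.068 with each library left out. With each library left out, TCEAL4 between FK and DMSO was −0.0022 to 0.15 and TCEAL8 between Met+FK and FK −0.040 to 0.23. TCEAL9 between Met+FK and FK was 0.042 with the GC trend removed and 0.042 with the block as well, and −0.28 to 0.048 with each library left out.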

Other observations

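The TFIIS elongation factors, after which the TCEAL genes are named, differed among themselves. Of TCEA1, TCEA2 and TCEA3, all tested, 1 was a DEG between Met+FK and FK and it was higher, where 9.27% of all genes were higher and 9.29% lower. TCEA2 held 635, 576 and 593 normalized counts in FK and 1023, 946 and 1079 in Met+FK, higher in 3 of 3 libraries (log2 fold change 0.75, adjusted p = 1.25e-05 in limma-trend). By the adjusted p-value alone TCEA1, the widely expressed form, was higher (0.38, adjusted p = 0.0206) and TCEA3 lower (−0.55, adjusted p = 0.0463). The adjusted p-value of TCEA1 stayed under 0.05 in 15 of 18 alternatives and that of TCEA3 in 10 of 18.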
